A study of Mus musculus with 6 samples.

Results

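The change from the secretory stage (Sec) to the maturation stage (Mat) of enamel formation was followed within Med1 null incisors. Its members were the 2 arrays KO Sec and KO Mat out of 6 arrays in the series, compared over the 9143 genes, of 16593 on the array, whose probe was detected on either of them at a detection p-value under 0.01. KO mice were homozygous for a floxed Med1 allele (MED1 fl/fl) and carried a Cre driven by the keratin 14 (K14) promoter. The deletion was thus aimed at the epithelium, whereas other cells of the tissue kept Med1. Control littermates (CON) had the same MED1 fl/fl alleles and no Cre. All mice were on the C57BL/6 background and 4 weeks old, and each array read RNA of dental tissue micro-dissected from lower incisors, pooled from 3 mice. The cervical loop (CL) was the remaining stage of the series. According to the labels, KO incisors at Mat hold a few hairs inside, and CON incisors at Mat form enamel. With 1 array per genotype and stage there was no spread between animals, so every count and difference below describes these arrays, and no p-value can be given. Genes were called higher or lower at Mat when the intensities differed by at least 1.5-fold, a difference of 0.58 on the log2 scale, with detection on the brighter array. Where a gene was detected on one side only, the dimmer side took at least the lowest value detected on its array, and the difference is a bound.

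Rodent incisors grow throughout life, so the stages of enamel formation lie one after another along the tooth. At the secretory stage, tall ameloblasts release the enamel matrix proteins amelogenin, ameloblastin and enamelin together with the protease Mmp20, which begins to trim them. At the maturation stage the same cells stop building matrix, secrete Klk4 to break it down, take it up, and move calcium, phosphate, bicarbonate and, in rodent incisors, iron. Med1 is a subunit of Mediator, the complex that connects transcription factors to RNA polymerase II. Hair follicles and epidermis are built by related epithelia that share many of the same transcription factors, but end in hair keratins and their associated proteins or in a cornified envelope.

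From Sec to Mat in KO, 689 of 9143 genes were higher (7.54% of those considered) and 660 were lower (7.22%). In CON the same step gave 1172 higher (13.3%) and 1153 lower (13.1%) of 8829 genes. These shares are the background for the counts of the gene lists below. The standard deviation of the log2 differences over the 7751 genes detected on all 4 arrays was 0.39 in KO and 0.64 in CON. A difference of 2-fold or more was reached by 89 genes upward and 128 downward in KO, against 482 and 493 in CON. At 4-fold or more there were 81 genes upward and 70 downward in CON, none upward and 5 downward in KO. The KO arrays of the 2 stages had a Pearson correlation of 0.977 over the 8458 genes detected on both, and the CON arrays 0.941 over 7977. These correlations are across genes of single libraries, which are not independent replicates.

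Few of the genes called in CON were called in the same direction in KO. A list cut at a threshold on 1 pair of arrays shrinks in other arrays. No repeat pair was available to show by how much, so the shares below are descriptions. Of the 1172 genes that were higher at Mat in CON, 199 (17%) were also higher in KO, 77 were lower, 850 were within 1.5-fold and 46 were not detected there. Of the 1153 genes lower at Mat in CON, 149 (12.9%) were also lower in KO, 58 were higher and 888 were within 1.5-fold. Over the 8463 genes considered in both genotypes, 5.71% were higher and 7.63% lower in KO whatever they did in CON. Seen from the KO side, the 199 shared genes were 28.9% of the KO genes that were higher and the 149 were 22.6% of those that were lower. The differences of KO and CON share no array, and over the 7751 genes they had a Pearson correlation of 0.2, given as a description of genes that share a normalization. No test of the difference between genotypes is possible with these arrays.

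**Figure D1:**
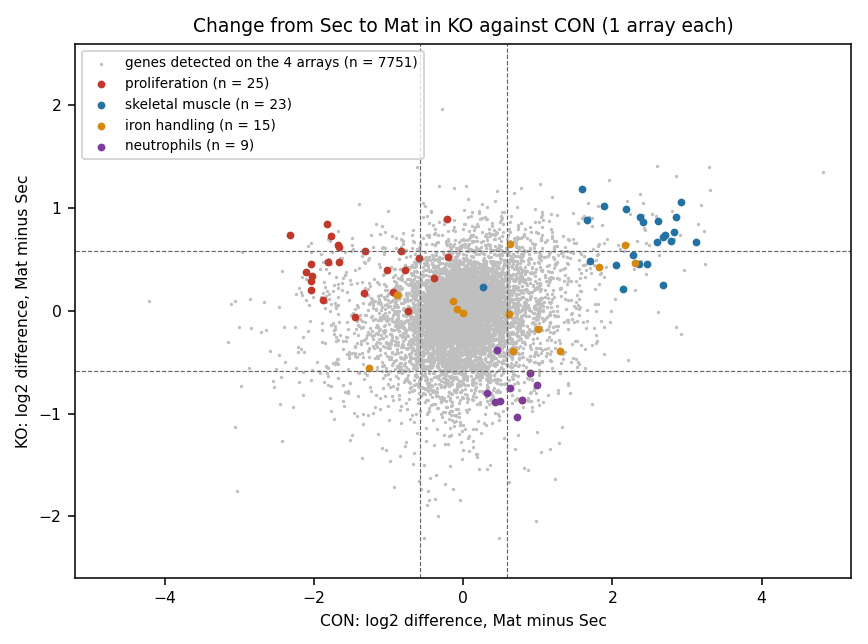
Log2 difference from Sec to Mat in KO (vertical axis) against CON (horizontal axis) for the 7751 genes detected on all 4 arrays, 1 point per gene, with dashed lines at 1.5-fold. Proliferation genes (red) lie left of 0 and mostly above it, muscle genes (blue) mostly far right and above 0, iron genes (orange) on both sides, neutrophil genes (purple) right of 0 and below it, and the cloud is wider along the CON axis.

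Genes with a larger CON increase were higher in KO more often, and genes with a larger CON decrease kept a KO median near 0. Among genes detected on all 4 arrays, CON increases of 1.5-fold to under 2-fold had a median KO difference of 0.04 (595 genes), and those of 2-fold to under 4-fold one of 0.19 (330 genes). Of 53 genes with an increase of 4-fold to under 8-fold in CON, 33 were also higher in KO and none was lower, with medians of 2.43 in CON and 0.66 in KO. Of 8 genes above that, 7 were higher in KO (medians 3.24 and 0.94). Skeletal muscle genes, higher in 24 of 26 in CON (median 2.37) and 17 of 26 in KO, were among the CON increases of 4-fold or more. Their part in these counts was not tested. Downward, of the 54 genes with a CON decrease of 4-fold to under 8-fold, 11 were lower in KO, 3 were higher and 40 were within 1.5-fold, with medians of -2.21 in CON and -0.16 in KO. Most of these decreases were thus within 1.5-fold in KO. The genes were grouped by size on 1 pair of CON arrays, so their differences can be smaller in any other pair.

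The genes that did not move in KO stood at different levels. Of 808 genes detected on all 4 arrays that were lower at Mat in CON and within 1.5-fold in KO, the KO mean of Sec and Mat lay within 1.5-fold of the CON Mat level alone in 416 and of the CON Sec level alone in 146. Of 769 genes higher at Mat in CON, the order was reversed, with 323 near the CON Sec level alone and 169 near the CON Mat level alone. Both sets were chosen on the CON values they are set against, so these counts are a description. The remaining genes were near both CON levels or near neither. Dlk1, a membrane protein of immature cells related to Notch ligands, was near neither, with 11.13 at CON Sec and 6.92 at CON Mat but 8.59 at KO Sec and 8.68 at KO Mat. It was the largest CON decrease among genes within 1.5-fold in KO. Fgg, a fibrinogen chain, was below both CON levels in KO, with 7.83 at CON Sec and 10.69 at CON Mat against 6.58 at KO Sec and 6.43 at KO Mat.

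Defining enamel genes were detected at both KO stages. Amelx, the gene of amelogenin, had log2 intensities of 15.32 at KO Sec and 15.01 at KO Mat, and Ambn, that of ameloblastin, 15.26 and 15.21. The highest value on every array was 15.32, so differences of both genes were compressed. Both were detected close to that value at both stages. Probes named Amtn or Odam were not among those annotated here, so these maturation stage genes were not analysed.

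Several genes of the secretory stage were lower at KO Mat than at KO Sec, and none of them was lower by 1.5-fold in CON. Mmp20, on chromosome 9 of GRCm38.p6 from 7628231 to 7674968, had 11.41 at KO Sec and 9.58 at KO Mat, a decrease of 3.56-fold, and 10.67 and 10.29 in CON. Enam, the gene of enamelin on chromosome 5 from 88487975 to 88506049, had 14.18 at KO Sec and 12.91 at KO Mat, against 13.13 and 13.27 in CON. For both genes KO Sec was the brightest of the 4 arrays and KO Mat the dimmest. Fam20a, a partner of the secretory kinase Fam20c that is mutated in human enamel defects, followed the same pattern, with 12.50 and 11.07 in KO and 11.97 and 12.16 in CON. Fam20c, the kinase that phosphorylates enamel matrix proteins, had 9.31 and 8.43 in KO and 8.32 and 9.20 in CON, a decrease in KO and an increase in CON. Of 7 genes of the secretory enamel matrix, 4 were lower in KO, 1 was higher and 2 were neither (median -0.88), whereas in CON none was lower and 2 were higher (median 0.14). The median over all genes considered was -0.02 in both genotypes. The exception upward was Fam83h, a cytoplasmic protein of keratin organisation that is mutated in human enamel hypocalcification, with 9.73 and 10.72 in KO and 8.70 and 9.66 in CON.

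Among the genes of enamel maturation, Klk4, which degrades the matrix left in maturing enamel (chromosome 7, 43881160 to 43885804), had 13.59 at CON Sec and 14.38 at CON Mat, an increase of 0.79, against 13.21 and 13.45 in KO, a difference of 0.24. At CL it had 6.86 in CON and 6.19 in KO, so the step from CL to Sec was present in both genotypes and the step from Sec to Mat passed 1.5-fold in CON only. Whether these steps differ between genotypes was not tested. Alpl, alkaline phosphatase, had 12.69 and 12.14 in KO and 13.40 and 13.51 in CON. The forkhead factor Foxo1 had 10.58 and 10.53 in KO and 10.79 and 11.63 in CON. Of 7 maturation genes considered in KO, none was higher, against 7.54% over all genes, and 2 were lower, the integrin Itgb6 (-0.85), which ameloblasts need for enamel mineral in mice, and the receptor Relt (-0.79).

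**Figure D2:**
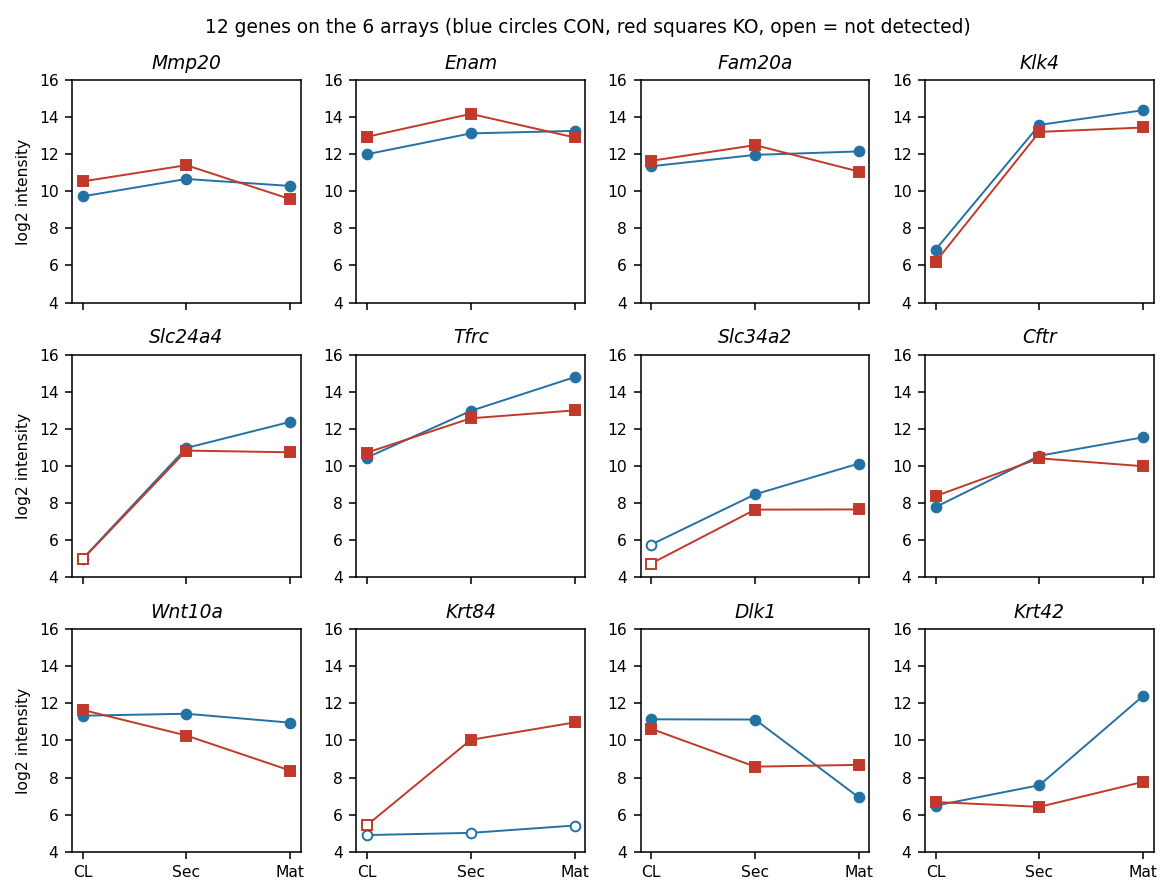
Log2 intensity (vertical axis) of 12 genes at CL, Sec and Mat in CON (blue circles) and KO (red squares), 1 array per point, with open symbols for probes not detected. From Sec to Mat the lines diverge for Slc24a4, Tfrc, Slc34a2 and Cftr, where CON was higher by up to 1.82 and no KO difference exceeded 0.43 in size, and cross for Mmp20, Enam and Fam20a.

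Transporters of the maturation stage move the ions of growing enamel crystals. Over the lists of pH and anions, calcium, phosphate with citrate and vitamin C, sodium and potassium, and iron, 33 of 65 genes were higher at Mat in CON and 3 lower (median 0.59). In KO 6 of 63 were higher, 10 were lower and 47 were neither (median -0.11). The shares over all genes were 7.54% higher and 7.22% lower in KO, and 13.3% and 13.1% in CON. Slc24a4, the sodium and calcium exchanger through which mouse ameloblasts export calcium, had 10.97 and 12.38 in CON but 10.83 and 10.74 in KO. The 2 genotypes thus had nearly the same level at Sec and differed at Mat. Cftr, the chloride channel, had 10.55 and 11.55 in CON and 10.41 and 9.98 in KO. The phosphate cotransporter Slc34a2 had 8.47 and 10.13 in CON and 7.64 and 7.65 in KO. All 3 genes were within 1.5-fold in KO and higher in CON.

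Within the calcium list none of 13 genes was higher in KO and 3 were lower, against 6 higher and none lower in CON. The 3 were Slc24a3, another exchanger of calcium for sodium, with 12.03 and 10.70, Atp2b1, a calcium pump of the plasma membrane (-0.68), and Cnnm2, a magnesium transporter (-0.69). The channel subunit Orai1, which admits calcium when stores are emptied, had a difference of 0.01 in KO and 0.89 in CON. Of 17 genes of pH and anion transport, 2 were higher and 3 lower in KO. The exchangers of the Slc26 and Slc4 families made up the latter, Slc4a9 (-0.92), Slc26a1 (-0.71) and Slc26a7 (-0.71), and Slc26a7 had increased by 0.68 in CON. Carbonic anhydrase 3 (Car3, 0.62) and Slc9a3r1, a scaffold of membrane transporters (0.59), were higher. Of 10 genes of the phosphate, citrate and vitamin C list, Slc20a1, a phosphate importer (-0.97), and Slc23a2, a vitamin C transporter (-0.95), were lower, and Slc5a8, a sodium-coupled monocarboxylate transporter, was higher in KO (7.84 and 8.68) as in CON, where it was detected at Mat only (8.10).

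The 15 iron genes considered in KO had a median difference of -0.02, with 2 called higher and 2 called lower. The transferrin receptor Tfrc had 12.97 and 14.79 in CON and 12.57 and 13.00 in KO, and the iron exporter Slc40a1 had 11.26 and 13.56 in CON and 12.61 and 13.08 in KO. Both KO differences, 0.43 and 0.47, were upward and below 1.5-fold. Heme oxygenase Hmox1 (8.39 and 9.03 in KO) and ceruloplasmin (Cp, a difference of 0.65), which oxidises iron as it leaves cells, were higher in KO. The iron binders Ltf (-0.86) and Lcn2 (-0.61) were lower, and both are also granule proteins of neutrophils. In CON 10 of 16 iron genes were higher and 2 were lower. Of the V-ATPase, lysosome and endocytosis genes, 1 of 38 was higher in KO and 2 were lower, against 8 higher and 1 lower in CON. The KO shares over all genes were 7.54% and 7.22%. Atp6v1a, the catalytic subunit of the proton pump, had 11.46 and 10.66 in KO and 10.67 and 11.64 in CON.

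Machinery of the secretory route was lower in part. Of 40 genes of the endoplasmic reticulum and its vesicles, 6 were lower at KO Mat and 1 was higher, and 7 of the 40 had a difference above 0 (median -0.23). The vesicle coat subunits Sec24d (8.74 and 7.53) and Sec23b (9.36 and 8.51) were among them, as were the cargo receptor Surf4 (12.53 and 11.59) and Srp72 of the signal recognition particle (8.73 and 7.74). In CON 1 gene was lower and 1 higher, with a median of -0.26, so the median moved alike in the genotypes while the count past 1.5-fold did not. Sec63, a partner of the translocation channel, was the gene upward in both (0.74 in KO and 0.60 in CON). Among 27 genes of protein folding and the unfolded protein response 2 were higher and 3 lower, against 7.54% and 7.22% over all genes. Chac1, a target of that response, had 11.98 and 12.74 in KO and 10.07 and 9.26 in CON.

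The largest decreases within KO among genes detected on both KO arrays were those of Steap1, a membrane protein of the Steap family on chromosome 5 from 5736322 to 5749317, and Gal3st4, a sulfotransferase acting on sugar chains. Steap1 had 9.69 at KO Sec and 7.48 at KO Mat, with 7.78 and 8.26 in CON. Gal3st4 had 9.12 and 6.92 in KO and a difference of -0.53 in CON. In both, KO Sec stood above all other arrays. Fetub, a secreted protease inhibitor of the cystatin superfamily, had 9.02 and 6.98 in KO but 7.69 and 8.67 in CON, an opposite direction. Other enzymes that modify sugar chains were among the 15 largest decreases, St3gal4, a sialyltransferase (-1.99), and Chst1, a sulfotransferase (13.41 and 11.72), and Galnt12, which starts O-linked chains, was detected at KO Sec (8.31) and not at KO Mat, a decrease of at least 2.48. These enzymes were noticed after their values were seen and were not a list. The remaining genes of that group were Tmem121b (-1.92), Wnt10a (-1.89), Cnksr2 (-1.85), Papln (-1.84), Mmp20, Fkbp1b (-1.76), Abcg5 (-1.76), 1700016K19Rik (-1.74), Mpzl2 (-1.74) and Gspt2 (-1.72). Of the 15, Abcg5, a subunit of a sterol transporter, was also lower in CON (-3.02), as were Gspt2 (-0.92) and Tmem121b, which was detected at CON Sec and not at CON Mat. Fetub was higher in CON, and the other 11 were within 1.5-fold there, as were 73.7% of all genes considered in CON.

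Of the genes detected at KO Sec and not at KO Mat, the 5 brightest were Galnt12, Caln1, a calcium-binding protein of neurons (8.30 at KO Sec, at least -2.48), Tmem184c (at least -1.31), Sorbs2 (at least -1.21) and Rbpjl (at least -1.17). With the mean of its probes in place of the brightest one, Sorbs2 had a difference of 0.34, so its direction depends on the probe.

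Wnt genes were split. Of 33 considered in KO, 8 were lower and 4 higher (median -0.23), while in CON 13 were lower and 6 higher (median -0.35). The shares over all genes were 7.22% lower and 7.54% higher in KO, and 13.1% and 13.3% in CON. Wnt10a, a ligand needed for teeth and hair and on chromosome 1 from 74792019 to 74804176, had 10.27 at KO Sec and 8.38 at KO Mat, whereas CON had 11.44 and 10.96. At CL it had 11.65 in KO and 11.34 in CON, so the KO level was lower at each later stage. The ligands Wnt7a (10.39 and 8.95), Wnt3a (11.09 and 9.99) and Wnt6 (10.52 and 9.51) were also lower at KO Mat. The inhibitors Wif1 (-0.90) and Sostdc1 (-0.70) were lower too. Upward were the receptor Fzd10 (8.70 and 10.09 in KO, 8.22 and 7.61 in CON), the agonist Rspo3 (1.01), the transcription factor Lef1 (0.83) and the ligand Wnt10b (0.64), of which Wnt10b was also higher in CON (2.08). Axin2, a widely used target of the pathway, had 9.67 and 9.93 in KO and 9.95 and 8.68 in CON.

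Of 30 genes of the Bmp and Tgfb pathways 6 were lower and none higher in KO, against 7.22% lower over all genes, among them Tgfb2 (-0.83), the receptor Tgfbr2 (-0.67) and the inhibitors of differentiation Id4 (-0.66) and Id2 (-0.64). Inhbb, a subunit of activin, gained 2.46 in CON and 0.45 in KO. None of 16 Notch genes passed 1.5-fold in KO, against 4 higher and 4 lower in CON. In KO 7.54% of all genes were higher and 7.22% lower. Shh, the hedgehog ligand, had 11.02 and 10.33 in KO and 12.40 and 10.20 in CON. Of 16 transcription factors of dental epithelium, Satb1 (-0.92), Isl1 (-0.86) and Id4 were lower and Foxq1 (11.24 and 11.92) was higher in KO, and Isl1 and Id4 had increased by 0.73 and 0.93 in CON. Lhx8 had 9.41 and 6.53 in CON and 7.59 and 7.04 in KO. Vwa2, a secreted protein of basement membranes, had 11.05 and 8.07 in CON and 9.52 and 8.79 in KO.

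**Figure D3:**
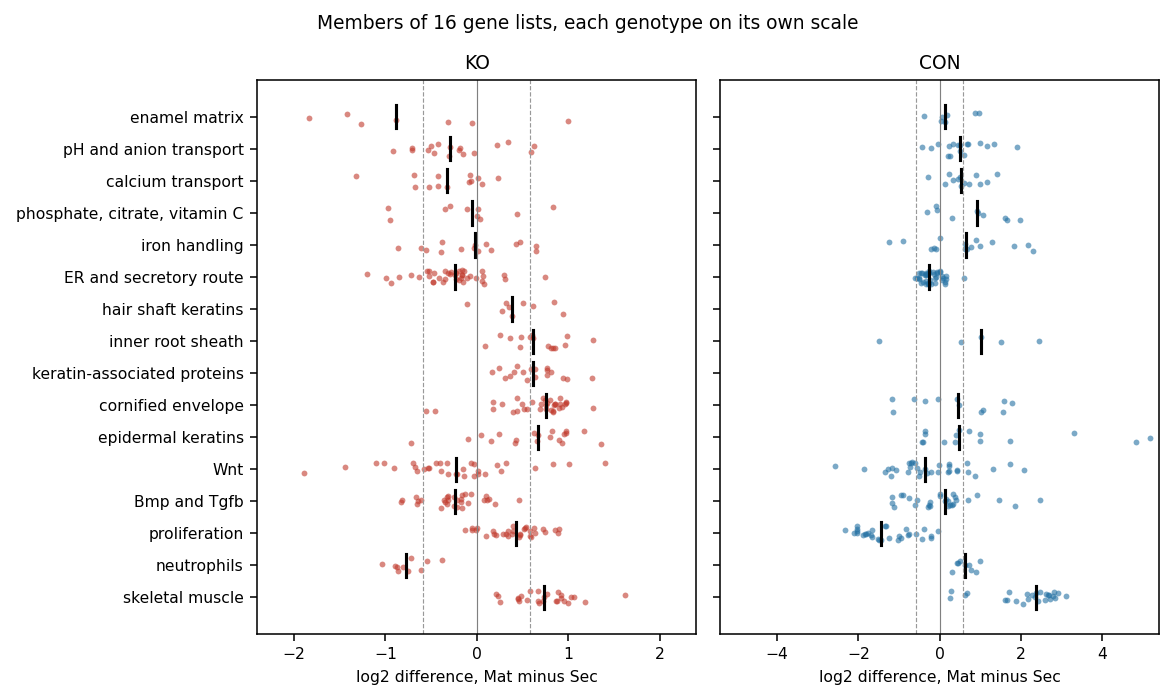
Log2 difference from Sec to Mat (horizontal axis) of each considered member of 16 gene lists in KO (left) and CON (right), 1 point per gene with the median as a black bar and dashed lines at 1.5-fold. The axes have different spans. In KO the medians of the hair, cornified envelope and epidermal keratin lists lie right of 0 and those of the enamel matrix and neutrophil lists left of it, with single members such as Krt8 and Fam83h on the other side, and the median of the proliferation list is 0.43 in KO and -1.45 in CON.

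Many hair and epidermal genes, the hair keratins among them not detected in CON, were higher at KO Mat than at KO Sec. Of 680 genes considered in KO that were detected at neither CON stage, 206 (30.3%) were higher and 14 were lower, against 7.54% and 7.22% over all genes considered in KO. The 680 entered only through detection on a KO array, where 497 genes were detected at Mat only and 188 at Sec only. This selection can favour genes brighter at KO Mat, so the share is a description and no independent support. These 206 genes were 29.9% of all KO genes that were higher. Taking hair shaft keratins, root sheath genes and keratin-associated proteins together, 22 of 42 genes were higher, none was lower and 20 were within 1.5-fold. Their median difference was 0.59, with quartiles of 0.37 and 0.81, and 41 of 42 lay above 0. As the probes of keratin-associated proteins and hair keratins belong to families of near-identical genes, single members can share signal.

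Hair shaft keratins form the fibres of the hair cortex and cuticle. Krt34 had 14.42 at KO Sec and 14.77 at KO Mat, and Krt33a 14.29 and 14.60. Both were close to the top of the range already at Sec, and their differences were compressed. Krt84, a keratin of the cuticle, had 10.03 and 10.97, and Krt35, an early keratin of the shaft, 11.57 and 12.41. Krt31 had 12.90 and 13.51. These 3 were the ones past 1.5-fold among 9 considered. Among 15 inner root sheath and companion layer genes, which mould the growing hair, 9 were higher and none lower. Among them were Tgm3, a transglutaminase that crosslinks sheath and envelope proteins (7.59 and 8.86), Padi4 (6.22 and 7.20) and Padi1 (11.20 and 12.17), which convert arginine to citrulline, and Crym (12.19 and 13.04). Krt71, the inner root sheath keratin, had 14.56 and 15.04, a difference of 0.48 near the top of the range.

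Keratin-associated proteins, which crosslink hair keratin fibres, were higher in 10 of 18 and lower in none (median 0.61). Krtap19-4 had the largest difference, with 11.53 and 12.78, followed by Krtap12-1 (7.10 and 8.09), Krtap5-1 (10.15 and 11.10) and Krtap13-1 (11.97 and 12.78). Promoters of one hair keratin and one keratin-associated protein that moved together are given because the letters of a TATA box were common among these genes. They are the 300 bases around the transcription start, most of them upstream of it, in the RefSeq annotation of GRCm38.p6, 5′ to 3′ on the strand of the gene, with every TATAAA, or TTTATA for the opposite strand, in capitals. The window of Krt31 is chr11:100050502-100050801 on the minus strand and that of Krtap13-1 is chr16:88728612-88728911 on the plus strand.
Krt31: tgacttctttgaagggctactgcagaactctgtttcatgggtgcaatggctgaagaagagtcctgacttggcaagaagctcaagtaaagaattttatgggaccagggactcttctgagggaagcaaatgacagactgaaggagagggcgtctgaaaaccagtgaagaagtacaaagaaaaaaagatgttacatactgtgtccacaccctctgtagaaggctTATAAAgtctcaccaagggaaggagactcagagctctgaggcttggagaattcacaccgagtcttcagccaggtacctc
Krtap13-1: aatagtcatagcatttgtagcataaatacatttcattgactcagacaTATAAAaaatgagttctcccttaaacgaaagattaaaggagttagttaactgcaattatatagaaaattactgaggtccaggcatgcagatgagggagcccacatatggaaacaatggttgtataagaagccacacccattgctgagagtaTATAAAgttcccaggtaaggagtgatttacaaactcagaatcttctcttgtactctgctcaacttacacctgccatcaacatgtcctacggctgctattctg
The letters TATAAA, on either strand, were in the window of 12 of 17 considered keratin-associated proteins with a window and 4 of 6 hair shaft keratins, against 14.2% of 27025 genes in the table, 1 window a gene. They were also in 7 of 14 inner root sheath, 3 of 6 enamel matrix and 10 of 31 cornified envelope windows. Skeletal muscle genes had them in 7 of 21 windows, neutrophil genes in 3 of 10 and proliferation genes in none of 27. A match is a description of these letters and not a test of a factor.

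Transcription factors of hair and epidermis were higher in 15 of 38 and lower in 4 (median 0.34). Grhl3, a driver of barrier formation (6.44 and 7.41), Ovol1, a repressor in epidermal and hair differentiation (9.82 and 10.71), and Pou3f1 (9.12 and 10.03) were higher, as were the homeobox genes Hoxc6 (8.42 and 9.34), Hoxb7 (8.67 and 9.53) and Hoxc13 (9.50 and 10.11), the last a regulator of hair keratin genes. None of these 6 was detected at CON Sec or CON Mat. Tfap2b (9.08 and 9.92), Foxe1 (8.53 and 9.38) and Gata3 (10.83 and 11.44), a regulator of the inner root sheath, behaved in the same way. Lower in KO were Maf (-0.93), Dlx2 (-0.84), Sox21 (-0.70) and Runx1 (-0.66), all 4 detected in CON at both stages. Foxn1, a factor of hair shaft differentiation, was at 6.74 and 6.87.

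Of 34 genes of the cornified envelope, the protein shell of dead epidermal cells, 23 were higher at KO Mat, none was lower and 11 were within 1.5-fold (median 0.75). Ivl, which encodes involucrin, had 10.65 and 11.40, Flg2 of the filaggrin family 9.26 and 10.23, and Lce1c of the late envelope 9.46 and 10.44. Lor, which encodes loricrin, had 13.47 and 13.91. Differences past 1.5-fold were thus found at several intensities, and that of Lor was 0.44. Among 19 epidermal keratins 12 were higher, with Krt79 (11.45 and 12.43), Krt77 (8.70 and 9.67) and Krt15 (11.29 and 12.22) among them, and the simple epithelial keratin Krt8 was lower (8.89 and 8.17). Of 22 genes of the lipid barrier 8 were higher and none lower. Aloxe3, a lipoxygenase of barrier lipids (6.42 and 7.58), Fa2h, which hydroxylates their fatty acids (10.35 and 11.22), and Elovl3, an elongase of sebaceous glands (6.59 and 7.42), were the largest. Among kallikreins of skin, Klk5 (8.59 and 9.50) and Klk6 (8.23 and 9.26) were higher too. Klk7 (12.37 and 12.81) and Klk8 (10.88 and 10.42) were within 1.5-fold, with Klk8 downward. Of 21 junction genes 5 were higher and 2 lower, against 7.54% and 7.22% over all genes. Dsg3 of the desmosome (6.45 and 7.73) and Dsc3 (9.13 and 10.06) were higher in both genotypes, and Cldn10, a claudin (13.44 and 12.73), was lower in KO.

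The study had chosen 3 lists on these arrays, so their direction is no independent evidence. Of its 32 dental genes considered, 2 were higher at KO Mat (Foxq1 and Slc5a8) and 6 lower, against 19 higher and 1 lower of 33 in CON. Of its 26 hair genes 17 were higher and 1, Wnt3a, was lower. Of its 30 epidermal genes 20 were higher and 1, S100a9, was lower.

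The largest increases within KO were mixed in kind. Gstz1, an enzyme of tyrosine breakdown on chromosome 12 from 87147161 to 87164723, had 6.60 at KO Sec and 8.57 at KO Mat, against 8.12 and 7.84 in CON, so that the KO Sec array stood below the others. Dpp4, a peptidase of the cell surface, had 8.25 and 9.96, and Serpinb2, a protease inhibitor of epidermis and macrophages, 7.78 and 9.31, and neither was detected in CON. Ass1, which makes argininosuccinate (9.34 and 10.72), and Tmem40 (8.10 and 9.48) were detected at CON Sec and not at CON Mat. Both were above the CON levels at Sec and at Mat. Others were higher in CON as well. Krt42 had 7.59 and 12.41 in CON and 6.42 and 7.77 in KO, Gsta3, a glutathione transferase, 7.41 and 10.71 in CON and 6.10 and 7.50 in KO, and Akr1c18, a steroid reductase, 10.47 and 13.07 in CON and 8.76 and 10.18 in KO. All 3 had a larger difference in CON. Ccn5 (1.32 in KO, 2.85 in CON) was alike, and Ms4a10 (1.32 in KO) and Sel1l3 (1.53 in KO) were detected in CON at Mat only. Tcap, Ky and Casq1 among the 15 are genes of muscle. Of the genes detected at KO Mat and not at KO Sec, the 5 brightest were Wdr46 (7.47 at KO Mat, at least 1.44), Mmp3 (at least 1.34), Prss22 (at least 1.31), Jup, plakoglobin of desmosomes (at least 1.29), and Aspg (at least 1.25).

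Glutathione and antioxidant genes were a group in which KO followed CON in part. In CON 15 of 36 were higher and 6 lower, and in KO 6 of 34 were higher and 2 lower. The 6 were Gsta3, Gsta4 (7.62 and 8.59), Gpx3 (12.62 and 13.59), Mgst1 (11.40 and 12.23), Srxn1 (9.23 and 9.96) and Gpx2 (9.95 and 10.61). All 6 were higher in CON as well, by 1.06 to 3.30. Cbr3, a carbonyl reductase, went the other way, with 10.71 and 12.11 in CON and 11.62 and 10.89 in KO. Glycolysis genes were higher in 3 of 14 in KO and 7 of 13 in CON, and Pfkp, a phosphofructokinase, was higher in both (1.05 and 1.67). For both lists, the shares over all genes were 7.54% higher and 7.22% lower in KO, and 13.3% and 13.1% in CON.

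Many proliferation genes were lower at Mat in CON, and none was lower in KO. In CON 26 of 31 were lower at Mat and none was higher (median -1.45). In KO 9 of 32 were higher, none was lower and 23 were within 1.5-fold (median 0.43), and 27 of 32 lay above 0. The difference between genotypes was not tested. Cdk1, the kinase of mitosis on chromosome 10 from 69335146 to 69352912, had 9.43 at CON Sec and 7.61 at CON Mat, but 8.73 at KO Sec and 9.58 at KO Mat. Cdc20, which activates the anaphase promoting complex, had 10.52 and 8.20 in CON and 9.80 and 10.54 in KO, and Top2a, the topoisomerase of dividing cells, 10.05 and 8.28 in CON and 9.73 and 10.46 in KO. In each of the 3, KO Sec lay below CON Sec and KO Mat far above CON Mat. The replication helicase genes Mcm6 (8.81 and 9.71), Mcm3 (6.91 and 7.80), Mcm5 (9.82 and 10.44) and Mcm2 (8.24 and 8.82) were higher in KO. So was the checkpoint kinase gene Bub1b (7.31 and 7.95). At CL, where the dividing cells of the incisor lie, Cdk1 had 10.08 in CON and 10.25 in KO, and Top2a 10.84 and 10.82. The mean log2 level of the 32 genes ran from 9.79 at CL through 9.15 at Sec to 7.81 at Mat in CON, and from 9.81 through 8.75 to 9.15 in KO.

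Promoters of Cdk1 and Cdc20 are given because genes of mitosis are known to share a pair of short elements, the CCAAT box and the cell cycle homology region, and these were common in the windows of the list. The windows are those of RefSeq for GRCm38.p6 as above, at chr10:69352863-69353162 and chr4:118437294-118437593, both on the minus strand. Capitals mark CCAAT or its reverse complement ATTGG, and TTTGAA or its reverse complement TTCAAA.
Cdk1: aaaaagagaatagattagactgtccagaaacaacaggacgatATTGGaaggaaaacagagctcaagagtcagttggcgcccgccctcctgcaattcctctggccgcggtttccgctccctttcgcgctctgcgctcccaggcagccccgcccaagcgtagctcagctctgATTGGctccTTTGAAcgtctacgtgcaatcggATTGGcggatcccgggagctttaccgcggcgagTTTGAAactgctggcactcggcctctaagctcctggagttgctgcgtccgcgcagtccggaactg
Cdc20: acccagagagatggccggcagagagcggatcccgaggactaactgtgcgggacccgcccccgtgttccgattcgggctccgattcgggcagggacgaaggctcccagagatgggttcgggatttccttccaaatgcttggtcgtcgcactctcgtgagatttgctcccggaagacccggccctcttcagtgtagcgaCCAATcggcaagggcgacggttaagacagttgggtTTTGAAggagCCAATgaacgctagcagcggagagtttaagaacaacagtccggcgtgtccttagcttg
Of 27 considered genes of the list with a window, 21 held CCAAT and 14 held TTTGAA on either strand, against 37.9% and 18.1% of the 27025 genes. None of the 27 held TATAAA. The letters were as common in some other lists, with TTTGAA in 6 of 6 hair shaft keratin windows and CCAAT in 5 of 6 enamel matrix windows.

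**Figure D4:**
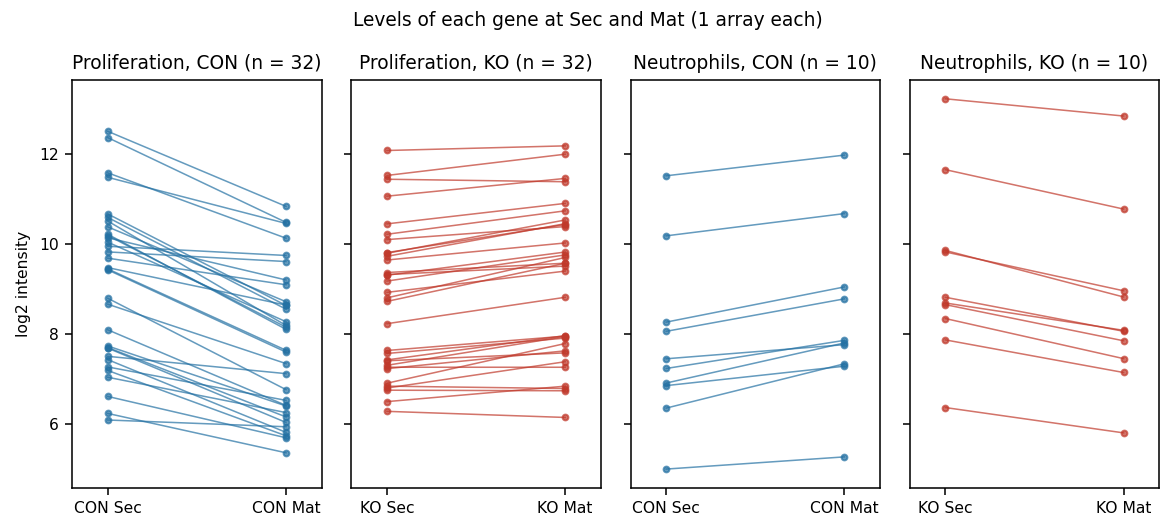
Log2 intensity (vertical axis) of each proliferation gene and each neutrophil gene considered in KO at Sec and at Mat, 1 line per gene and 1 panel per genotype, with values of undetected probes included. In CON the 32 proliferation lines fall and in KO most rise slightly, and the 10 neutrophil lines rise in CON and fall in KO.

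Among markers of cells other than epithelium, many of those of neutrophils were lower at Mat in KO, and several were higher at Mat in CON. In bulk tissue fewer cells of a type and less RNA per cell cannot be told apart. Of 10 neutrophil genes 8 were lower at KO Mat and none was higher (median -0.78), against 5 of 9 higher and none lower in CON (median 0.63). Camp, a granule peptide, had 9.87 and 8.83 in KO and 8.07 and 8.79 in CON, and S100a9, a subunit of calprotectin, 11.66 and 10.79 in KO and 10.19 and 10.68 in CON. KO Sec was the brightest of the 4 arrays for both. The mean log2 level of the 10 genes was 9.34 at KO Sec, 8.59 at KO Mat, 7.79 at CON Sec and 8.39 at CON Mat. At CL it was higher than at these stages, with 10.32 in KO and 9.62 in CON. S100a8 and S100a9 are also made by stressed epidermis, and the part of either source was not tested.

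Skeletal muscle genes were higher at Mat in both genotypes, in 17 of 26 in KO (median 0.73) and 24 of 26 in CON (median 2.37), and lower in none. Ckm, muscle creatine kinase, had 10.23 and 11.29 in KO and 7.81 and 10.73 in CON, and Casq1, a calcium store of muscle, 6.06 and 7.68 in KO with no detection in CON. The mean log2 level over 27 genes was 10.15 at KO Sec and 10.88 at KO Mat, against 8.29 and 10.39 in CON, so the level of muscle genes differed between all 4 dissections. The CON increases of 4-fold or more described above included genes of this list, among them Ckm, Ttn and Tnnc2. The part of muscle tissue in these counts was not tested.

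Some genes of cells that accompany skin were also higher at KO Mat, and others were lower or within 1.5-fold. Over all genes considered in KO, 7.54% were higher and 7.22% lower. Of 10 melanocyte genes 4 were higher and 2 lower, with Pmel (9.85 and 10.67), Mlana (10.27 and 11.07) and Oca2 (7.14 and 7.89) of pigment granules upward and the vesicle genes Rab27a (-1.02) and Rab38 (-0.70) downward. Adipocyte genes were higher in 4 of the 5 considered, among them Cidea (9.02 and 10.02) and Lep, which encodes leptin (6.87 and 7.76). The other 5 of the 10 on the array, among them the defining markers Fabp4 and Plin1, were not detected on either KO array. Among mast cell genes Mcpt4 (8.71 and 9.65) and Cma1 (7.81 and 8.59) were higher and Fcer1a was lower (at least -0.80). Of 12 macrophage genes none passed 1.5-fold, and of 15 endothelial genes 3 were higher, Cdh5 (0.79), Pecam1 (0.69) and Ly6c1 (0.64). Bone and odontoblast genes were lower in 3 of 12, Phex (11.33 and 10.01), Sp7 (-0.82) and Nes (-0.60), and higher in none. The part of these cells in the results above was not tested.

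Ribosomal protein genes were lower in 12 of 53 in CON and in none in KO, where Rpl21 (0.62) was the single gene past 1.5-fold. Genes of antigen presentation and the interferon response were lower in 13 of 34 in CON and in 2 of 32 in KO. The shares lower over all genes were 13.1% in CON and 7.22% in KO. Rsad2, an antiviral gene, had 9.55 and 7.49 in CON and 7.45 and 7.35 in KO, and Ifit3 10.19 and 8.35 in CON and 7.11 and 7.59 in KO. For both, the KO level at Sec was already at or under the CON level at Mat. Of the 26 Mediator subunits none passed 1.5-fold in KO. Med1 itself had 8.72 at KO Sec and 8.66 at KO Mat, against 9.35 and 9.15 in CON, and where its probe lies relative to the deleted part of the gene is unknown. Of 58 genes of oxidative phosphorylation 4 were lower in KO (Ndufb2, Ndufa1, Ndufb11 and Ndufb9, all of complex I), a share near the 7.22% of all genes, and none of 57 was called in CON. Sterol synthesis genes were higher in 3 of 19 in KO, led by Mvd (7.89 and 8.79), against 7.54% over all genes.

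Opposite calls were given to 68 genes that were higher in CON and lower in KO and to 43 of the reverse kind, among genes detected on all 4 arrays. They were 6.9% of the 986 CON increases and 4.38% of the 982 CON decreases, against 7.63% lower and 5.71% higher in KO over all genes considered in both genotypes, so opposite calls were no more frequent than KO calls in general. The 6 of the first kind with the largest gap were Fetub, Plppr4 (7.05 and 8.28 in CON, 8.44 and 6.80 in KO), Gpm6a (6.60 and 7.89 in CON, 7.76 and 6.47 in KO), Cntnap2 (10.70 and 11.86 in CON, 11.42 and 10.07 in KO), Clic6 (8.39 and 9.72 in CON, 9.42 and 8.29 in KO) and Ppargc1a, a coactivator of mitochondrial genes (7.67 and 9.39 in CON, 8.32 and 7.42 in KO). Gpm6a and Cntnap2 encode membrane proteins of neurons. In all 6 the KO Sec array was above CON Sec and the KO Mat array below CON Mat. The 6 with the largest gap in the reverse direction were Cdc20, Cdk1, Hmgb2 (10.92 and 9.11 in CON, 10.93 and 11.63 in KO), Top2a, Kif2c and Kif4, all genes of dividing cells.

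Technical measures of the 2 KO arrays were close but not equal. Between 46.1% and 49.8% of probes were detected on the 6 arrays, 47.8% on KO Sec and 49.8% on KO Mat, and the lowest value detected was 6.02 at KO Sec and 5.83 at KO Mat. In KO 497 genes were detected at Mat only and 188 at Sec only, and of these 40 and 43 passed 1.5-fold. None of 10 housekeeping genes passed 1.5-fold in KO, with Gapdh at 14.25 and 14.18. The genes of the X and Y chromosomes differed between pools. Xist, which is made in females, had 8.72 at KO Sec and 7.84 at KO Mat, 9.02 at CON Mat and was not detected at CON Sec, and Eif2s3y, of the Y chromosome, was detected on all 4 arrays (8.86 and 8.97 in KO, 10.15 and 9.44 in CON), so the pools did not hold the same share of females. Its part in the results was not tested. Where a gene that was higher in KO had another probe detected on both KO arrays, that probe had the same sign in 115 of 127 genes and passed 1.5-fold in 60. For genes that were lower the numbers were 97 and 46 of 114. Both probes read the same 2 pools.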

How the data were processed

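The members, gene lists and comparisons were chosen with earlier results of these data known. The submitters' processing notes name GenomeStudio, and its version, the normalization method and the build are not given in the sources used here. The deposited non-normalized table holds a mean intensity on the linear scale for 25697 probes and 6 arrays, with a detection p-value for each, deposited beside it. The lowest intensities lay between 104.4 and 115.3, so background had not been subtracted. A deposited table of normalized intensity values (medians of 182.7 to 182.9) served as an alternative.

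The intensities were processed with limma 3.58.1 in R 4.3.3, with neqc on all 6 arrays (background from the detection p-values, quantile normalization, offset 16, log2). Gene names came from the array's platform annotation, updated through gene identifiers to GRCm38.p6 (23962 of 23978 named probes matched), and 1719 without a symbol were left out. Each of 16593 genes took its probe with the highest mean. A gene was considered when detected at a detection p under 0.01 on either array, and called at 1.5-fold, the fold of the methods. With 1 array per group there is no test, and the number of arrays limits the precision. The calling step was tested on simulated intensities with known folds. The 53 gene lists hold 1316 names, of which 1153 matched a gene on the array.

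The named genes are the 15 largest increases and decreases among genes detected on both KO arrays, the 5 brightest detected on a single one, the 8 largest CON changes each way with KO within 1.5-fold, the 6 largest opposite changes each way, up to 4 members of each list with those against it, and a fixed set of enamel, control and sex-linked genes. Other members are named as examples of their list, chosen after their values were seen. The 10 alternatives are given in the closing section.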

Additional observations from a re-analysis of the deposited data

Results flagged for a closer look

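Genes whose difference from Sec to Mat passed 1.5-fold in opposite directions in KO and CON are listed with their KO difference. The difference between genotypes was not tested, as each direction rests on 1 pair of arrays. Lower in KO and higher in CON were Fetub (-2.04), Plppr4 (-1.64), Cntnap2 (-1.35), Gpm6a (-1.29), Clic6 (-1.14) and Ppargc1a (-0.90). Higher in KO and lower in CON were Cdk1 (0.85), Cdc20 (0.74), Top2a (0.73), Hmgb2 (0.70), Kif2c (0.66) and Kif4 (0.63). These are the 6 with the largest gap each way among 68 genes higher in CON and lower in KO and 43 of the reverse kind, all detected on the 4 arrays. These counts are 6.9% of the CON increases and 4.38% of the CON decreases detected on the 4 arrays, against 7.63% lower and 5.71% higher in KO over all genes considered in both genotypes.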

How the results depend on the processing

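The 4 counts, 689 genes higher and 660 lower at KO Mat, and 199 CON increases and 149 CON decreases shared with KO, stayed within 1.5 times of these values with a detection p under 0.05, with genes detected on both arrays only, with no detection filter, with the mean of probes, with arrays scaled to a common median and with neqc on the arrays of 1 genotype at Sec and Mat alone. At a fold of at least 2 they were 89, 128, 25 and 15, and the higher genes were 41% of the calls against 51.1% in the main setting. Without background correction, and with the deposited normalized values, they were 330, 289, 93 and 53; the cause was not tested. With an offset of 50 the shared decreases were 97. Across the alternatives that kept the 1.5-fold threshold, named genes kept their call in 1898 checks, lost or gained it in 176 and changed sign in 1. The change of sign was that of Sorbs2, with 0.34 for the mean of its probes. In all of these alternatives 158 of 232 kept their call. Calls of single genes were not checked at a fold of at least 2, where many differences given above would not pass. No paired analysis was possible because each group has 1 array. Leaving out an array was not possible either, and p-values were not computed.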
